A study of Mus musculus with 2 samples.

Results

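The nuclear factor I (NFI) family comprises Nfia, Nfib, Nfic and Nfix, 4 genes that encode transcription factors with a shared DNA-binding domain. NFI proteins bind DNA as dimers at a palindrome of TTGGC and, after a short gap, GCCAA, and can open or hold open chromatin at the sites they bind. Nfia is known for its part in the making of glia, Nfib for lung and brain development, Nfic for tooth root formation and Nfix for muscle and neural development. In the prostate, NFI proteins are known as partners of FOXA1, and in mouse small cell lung cancer Nfib is known as a gene gained in copy number together with Mycl.

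Accessible regions around these genes were compared in 2 ATAC-seq libraries of mouse prostate tumor cells from C57BL/6 animals. M6 came from the late stage of progression toward neuroendocrine prostate cancer, after tamoxifen treatment for 6 months, and W2 from the early stage, after treatment for 2 weeks. Both groups thus received tamoxifen. The sources used here do not name the tumor model, its alleles, the age of the animals, or whether cells were cultured or pooled. With 1 library per group, differences have no replicate check and no p-value, and all intervals reflect counting error alone. In such bulk libraries, a larger share of cells with an open site and a more open site per cell cannot be told apart.

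The members were the peaks that overlapped the mm10 body of an NFI gene or the 50 kb on either side of it by at least 1 bp. These windows held 50 of the 22570 M6 peaks and 8 of the 5735 W2 peaks on chromosomes 1 to 19, X and Y. Nfib was selected on the number of M6 peaks around it, so its M6 counts, and the contrast of Nfib with the other 3 genes in M6, are descriptions that support nothing further. Read totals were not used here. The median local background of a peak, the tag density around it, was alike in the libraries at 3.52 tags in M6 and 3.44 tags in W2. The lists ended at unlike limits, with a lowest background of 2.65 tags in M6 and 2.96 in W2. The lowest −log10 p was 3.80 in M6 and 4.50 in W2, so the M6 list reached weaker peaks. The part of this in the peaks found in M6 only was not tested. Of 10 luminal prostate markers, 6 had a peak in the gene or within 10 kb of it in M6 and 4 in W2. Hoxb13 had 0 in both, and Foxa1 had one in W2 only. Of 6 neuroendocrine markers, 4 had one in M6 and 1 in W2. Of 3 leukocyte markers, 0 had one in either library. Of 2 endothelial markers Pecam1 had one in M6 only and Cdh5 in neither library, and the 2 fibroblast markers Col1a1 and Pdgfra had one in M6 only. Over all protein-coding genes the shares with such a peak were 59.1% in M6 and 29.6% in W2. The part of such cells in the results below was not tested.

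In the windows of Nfia, Nfic and Nfix, some accessible sites lay at starts of other genes, and the sequences of 3 such starts are shown first. Each is the 250 bases before an annotated start, from RefSeq (GRCm38.p6, the assembly that mm10 names), written 5′ to 3′ on the strand of the gene. Dohh, which encodes deoxyhypusine hydroxylase, lies in the window of Nfic, and Calr, which encodes the endoplasmic reticulum chaperone calreticulin, in that of Nfix. Both starts had a peak in both libraries, and the capitals mark the bases from one library's summit to the other's.
Dohh (chr10:81384184-81384433, plus strand): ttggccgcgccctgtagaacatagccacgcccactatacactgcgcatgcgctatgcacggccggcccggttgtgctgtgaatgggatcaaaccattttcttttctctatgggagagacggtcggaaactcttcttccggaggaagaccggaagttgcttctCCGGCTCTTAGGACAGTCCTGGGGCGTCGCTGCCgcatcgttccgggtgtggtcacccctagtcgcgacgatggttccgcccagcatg
Calr (chr8:84846932-84847181, minus strand): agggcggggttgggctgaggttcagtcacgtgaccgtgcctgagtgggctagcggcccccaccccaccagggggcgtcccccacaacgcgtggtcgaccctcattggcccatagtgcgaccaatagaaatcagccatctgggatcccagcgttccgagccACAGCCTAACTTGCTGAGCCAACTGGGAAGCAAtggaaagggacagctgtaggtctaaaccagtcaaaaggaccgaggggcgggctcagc
At Dohh the summits lay 55 bases before the start in M6 and 88 in W2. At Calr they lay 90 bases before it in M6 and 58 in W2. Gm19417, a long non-coding RNA gene inside Nfia, had a peak over its start in M6 only, with the summit 41 bases before the start. Here the capitals mark the letters TTGGCA, an arm of the NFI palindrome with its next base.
Gm19417 (chr4:97869010-97869259, minus strand): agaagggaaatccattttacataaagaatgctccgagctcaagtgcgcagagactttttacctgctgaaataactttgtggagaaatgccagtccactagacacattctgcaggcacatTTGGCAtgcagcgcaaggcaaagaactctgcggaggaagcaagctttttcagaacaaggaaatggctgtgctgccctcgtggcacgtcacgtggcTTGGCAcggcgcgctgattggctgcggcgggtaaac
The matched starts of Nfia, Nfic and Nfix had no peak. RefSeq sequences were matched for Nfia, Nfic and Nfix, with 1, 1 and 4 starts, while an entry for Nfib was not used here. Of these 6 start regions, each from 250 bases before to 50 after a start, 0 overlapped a peak in M6 and 0 in W2. Over all 32817 start regions of the table the shares were 26.1% in M6 and 11.9% in W2. The nearest M6 peak lay 19.3 kb from the matched start of Nfia, 5.76 kb from that of Nfic and between 1.10 and 8.30 kb from those of Nfix. The annotated body of each of these genes reaches farther upstream than its matched starts, so any starts farther out were not checked. The peak nearest the Nfic start lay 1.01 kb beyond the upstream end of the annotated body. The start regions of these genes are shown for comparison, for Nfix the farthest upstream of its 4 matched starts.
Nfia (chr4:97581693-97581942, plus strand): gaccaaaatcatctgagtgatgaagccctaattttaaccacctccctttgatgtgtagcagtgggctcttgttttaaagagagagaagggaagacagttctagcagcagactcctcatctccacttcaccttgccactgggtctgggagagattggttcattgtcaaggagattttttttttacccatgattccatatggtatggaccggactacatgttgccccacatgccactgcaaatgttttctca
Nfic (chr10:81427174-81427423, minus strand): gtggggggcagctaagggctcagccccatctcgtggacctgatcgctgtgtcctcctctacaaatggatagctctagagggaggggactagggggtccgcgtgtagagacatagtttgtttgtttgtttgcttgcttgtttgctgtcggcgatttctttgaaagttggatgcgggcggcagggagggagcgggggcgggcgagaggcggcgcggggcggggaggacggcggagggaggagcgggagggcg
Nfix (chr8:84780083-84780332, minus strand): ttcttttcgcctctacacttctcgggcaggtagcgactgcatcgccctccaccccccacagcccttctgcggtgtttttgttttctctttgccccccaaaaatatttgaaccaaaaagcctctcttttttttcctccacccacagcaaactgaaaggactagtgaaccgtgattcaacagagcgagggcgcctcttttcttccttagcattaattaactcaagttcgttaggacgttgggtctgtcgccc
None of them has capitals because none holds TTGGCA or its reverse complement TGCCAA. That element was found in 0 of the 6 NFI start regions, against 14.1% of all start regions and 10.5% of those with an M6 peak. Gm19417 held 2 copies. In the Nfic window, the starts of Smim24 and Gm16104 held 1 copy each and had no peak in either library. The starts of Hmg20b, Fzr1, Dohh and Calr had peaks in both libraries and 0 copies. A link between the element and accessibility was not tested. The full palindrome, TTGGC followed after 5 bases by GCCAA, was in none of the 6, and in 12 of all 32817. G and C made up 63.0% of the Nfic region, 49.3% of the Nfix region shown and 44.7% of the Nfia region, against a median of 62.7% in regions with an M6 peak and 49.7% in those without.

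Nfib had by far the most M6 peaks of the family and no W2 peak. Its window of 317 kb (gene body chr4:82290173-82506751) held 23 M6 peaks and 0 W2 peaks. Nfia (chr4:97578066-98118876), the longest gene with a window of 641 kb, had 9 M6 and 2 W2 peaks. Nfic (chr10:81396191-81431919), the shortest with a window of 136 kb, had 8 and 3. Nfix (chr8:84704712-84801238, window of 197 kb) had 10 in M6 and 3 in W2. Every NFI window thus had more peaks in M6 than in W2, as did 64.2% of the windows of 21887 protein-coding genes, while 2.07% had fewer. M6 peaks were present at 4 of 4 NFI windows and at 74.4% of all windows, and W2 peaks at 3 of 4 and at 48.3%. The state of Nfib, M6 peaks with no W2 peak, was shared by 27.1% of all windows.

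Per length, the order of the M6 densities was Nfib, Nfic, Nfix, Nfia. Nfib had 7.27 M6 peaks per 100 kb, Nfic 5.89, Nfix 5.09 and Nfia 1.40, and the median of all protein-coding windows was 1.40. In W2 the densities were 0 at Nfib, 2.21 at Nfic, 1.53 at Nfix and 0.312 at Nfia, with a median of 0 over all windows. Nfib stood at percentile 99.3 of all windows in M6 and 142 genes were denser. Nfic stood at percentile 97.9 and Nfix at 95.8, so 3 of the 4 genes lay near the dense end, while Nfia lay in the middle. Nfib had 2.62 times the M6 density of the other 3 windows together (2.77 per 100 kb). That order depends on how a peak is counted. With peaks of at least 3-fold over local background, Nfib had 1.58 per 100 kb and the other 3 windows 2.67, and with an equal number of peaks per library ranked by fold the values were 0 and 0.411.

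**Figure D1:**
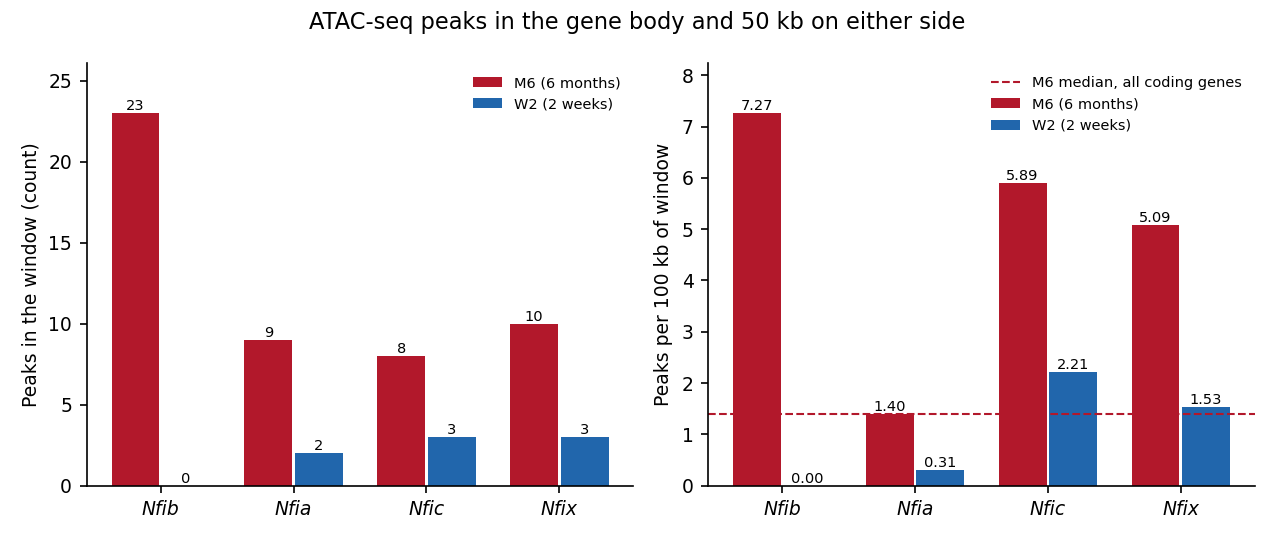
Peaks in the gene body and 50 kb on either side of each NFI gene, as counts (left) and per 100 kb of window (right), with 1 bar per library and M6 (red) left of W2 (blue). Nfib has 23 M6 and 0 W2 peaks, and the M6 density of Nfia (1.40 per 100 kb) sits at the median of all protein-coding windows (dashed line).

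Inside the gene bodies the contrast was wider. Nfib held 16 M6 peaks in its body, with 3 in the flank below it and 4 in the flank above. Nfia held 8 of its 9 M6 peaks in its body, Nfix 4 of 10 and Nfic 1 of 8. In W2, Nfia had 2 peaks in its body, while Nfib, Nfic and Nfix had 0. Most peaks counted for Nfic and Nfix therefore lay outside these genes. Both sit among many genes, with 85 protein-coding neighbors within 1 Mb of Nfic and 62 of Nfix, against 7 for Nfib and 10 for Nfia.

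**Figure D2:**
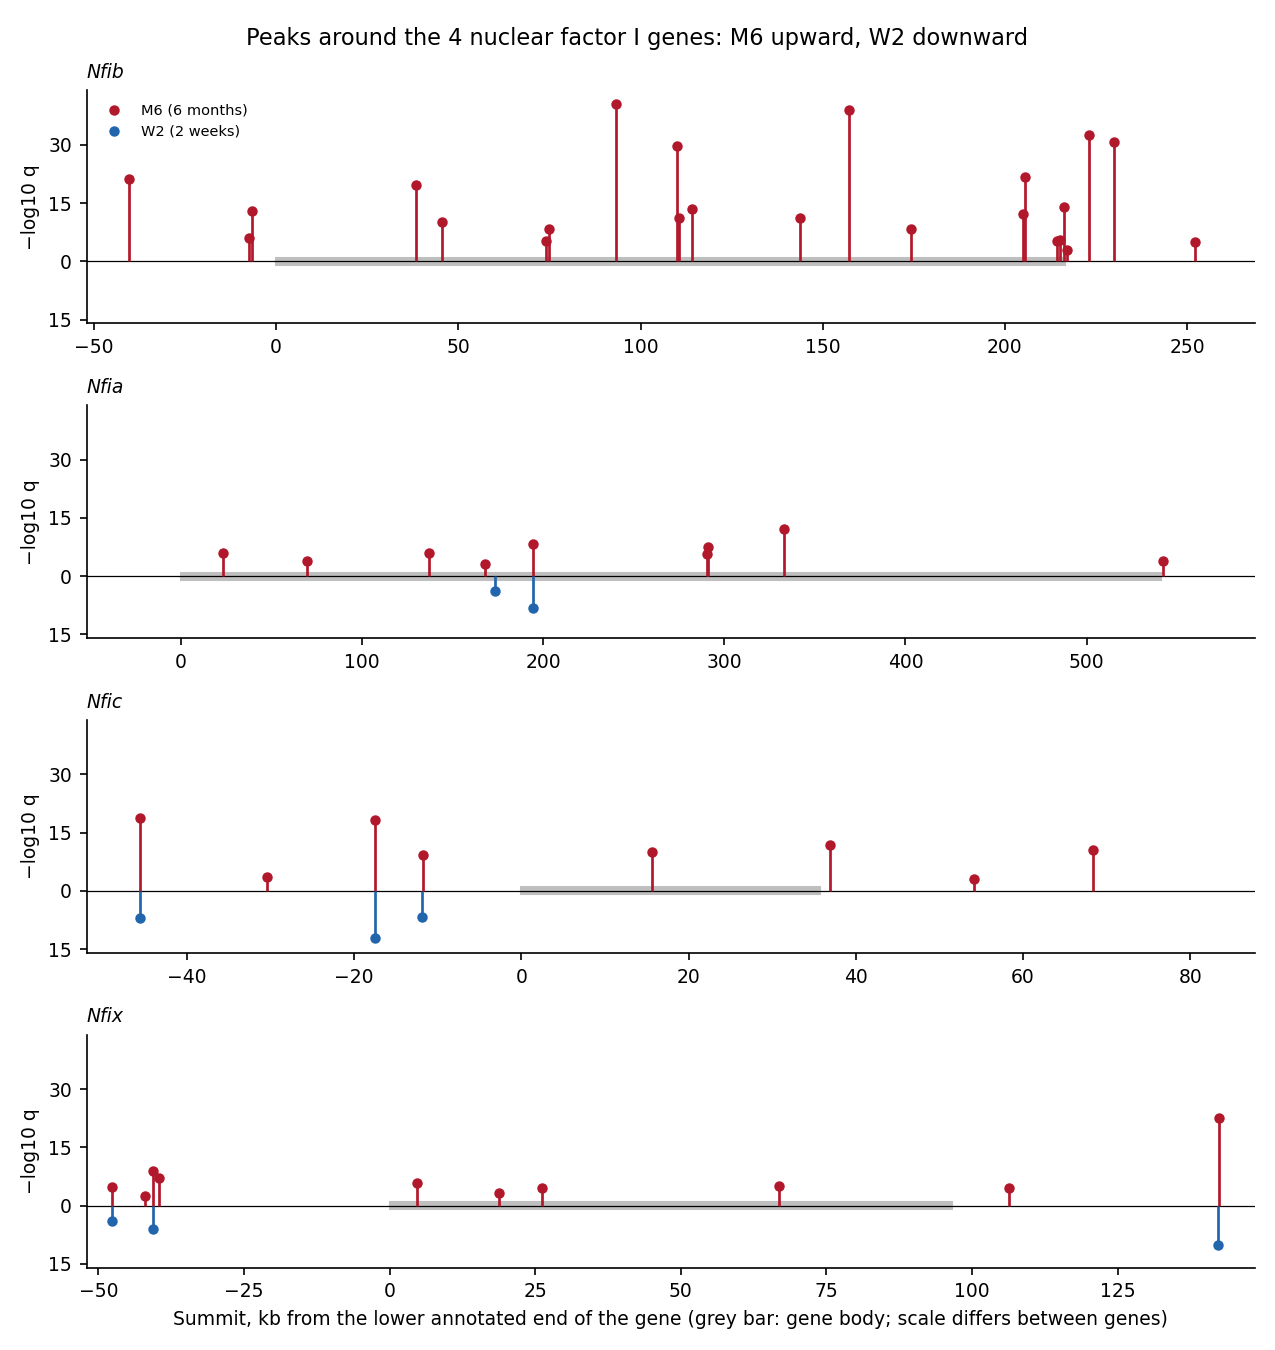
Peaks of M6 (red, upward) and W2 (blue, downward) around each NFI gene, placed by the distance of the summit from the lower annotated end of the gene in kb, with the height giving the authors' −log10 q and the grey bar the gene body. Nfib carries M6 peaks over most of its body, apart from its lowest portion, and no W2 peak, while the W2 peaks at Nfic and Nfix all lie outside the gene.

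The M6 peaks of Nfib had many tags and a low fold. The strongest by −log10 q, chr4:82383362-82384793 in the gene body, was 1432 bp wide with a summit pileup of 184 tags (exact Poisson 95% interval 158 to 213) over a background of 51.3 tags, a fold of 3.54 and a −log10 q of 40.5. It ranked 40 of 22570 in −log10 q and 15 in pileup, but 20529 in fold. The next, chr4:82447110-82447748, also in the body, had 171 tags (146 to 199), a fold of 3.64 and a −log10 q of 39.0. Both are thus among the most significant peaks of the library while most other M6 peaks exceed them in fold. The following pair in strength lay above the upper annotated end, 6.03 and 13.2 kb from it, inside the long non-coding RNA gene Gm11266. They were chr4:82512778-82513669 (180 tags, fold 3.09, −log10 q 32.5) and chr4:82519908-82520570 (163 tags, fold 3.18, −log10 q 30.7). The last of the strongest 5, chr4:82399830-82400449 (168 tags, fold 3.04, −log10 q 29.6), lay in the body with a weaker peak 0.202 kb away. These 5 were the only Nfib peaks with a fold of at least 3, which 98.4% of all M6 peaks reached.

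A group of 4 weaker peaks lay at the upper end of Nfib (chr4:82504288-82507319), with pileups of 110, 111, 140 and 103 tags and folds of 1.78, 1.81, 2.28 and 1.60. The last of these, chr4:82506891-82507319, 0.140 kb beyond the end, had the lowest fold of the whole M6 list. Their backgrounds, 60.9 to 64.0 tags, were the 4 highest of any Nfib peak, while 3 of the 4 pileups lay below the median of the gene.

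Over all 23 peaks of Nfib, the pileup ran from 79 to 184 tags with a median of 113, against 13 to 46 with a median of 22 at the 27 peaks of the other 3 genes. The groups did not overlap in pileup. A peak over a higher background needs more tags to be called and can be called at a lower fold. Pileup and fold at Nfib are thus not traits separate from the local background given in the next paragraph. Of the 80 M6 peaks in the genome with 100 tags or more, 17 lay at Nfib. The fold ran the other way, with a median of 2.33 at Nfib (1.60 to 3.64) and 4.11 at the other 3 genes (2.55 to 7.44), against 4.71 over the library. Nfib peaks were also wider, with a median of 477 bp against 246 bp at the other 3 genes and 337 bp over the library.

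The local background set Nfib apart from its relatives. Background was taken as raised from 3 times the median of the library upward, and 23 of the 23 Nfib peaks and 0 of the 27 others were raised. At Nfib the background ran from 37.9 to 64.0 tags with a median of 47.3, which is 13.4 times the library median. It had a median of 3.48 tags at Nfia, 6.23 at Nfic and 5.30 at Nfix, with a highest value of 8.62 tags at Nfic. Windows whose M6 peaks were all raised made up 0.0959% of all protein-coding windows, or 21 genes, and the 19 of them with 5 or more M6 peaks were all on chromosome 4. Of these 19, only Nfib, Zdhhc21, Cer1 and Frem1 lay near Nfib. The rest, the larger group, lay around Mycl between chr4:122689259 and 123343252, and most of them also had W2 peaks. The 6 Nfib peaks with no other peak within 10 kb had 39.5 to 51.3 tags (median 46.1), beside 37.9 to 64.0 (median 50.6) for the other 17. When the tags of raised peaks were scaled down to the library median background, 2 of the 23 Nfib peaks, the 2 strongest, still reached the lowest −log10 p in the M6 list (3.80). The lists hold no input library and no DNA copy number, so more copies of the stretch and more open chromatin across it cannot be told apart here.

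**Figure D3:**
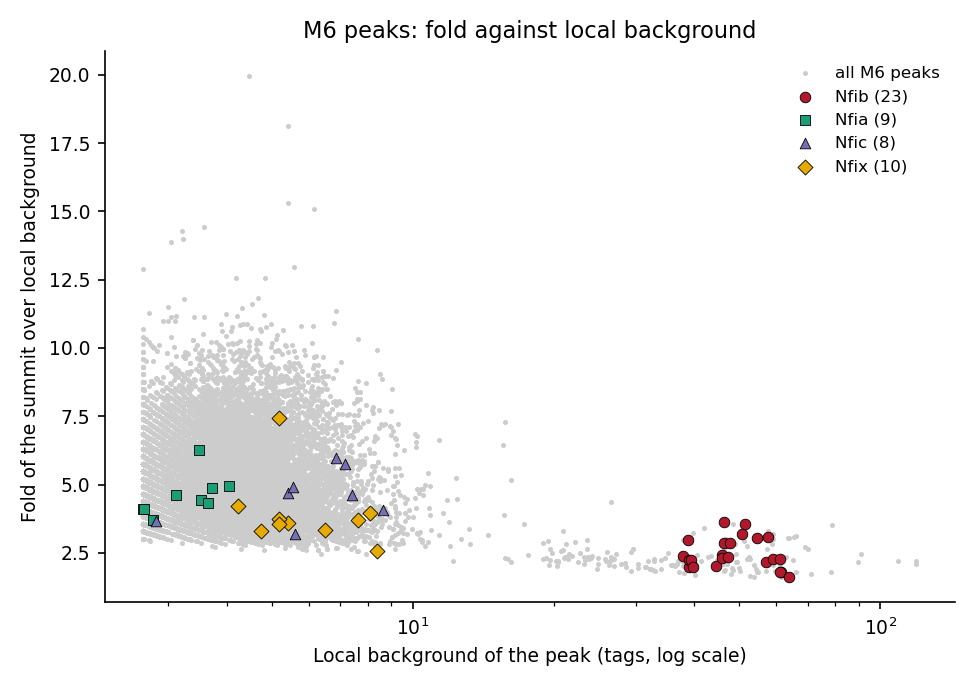
Fold of the summit over local background (y) against local background in tags (x, log scale) for all M6 peaks (grey) and those of the 4 NFI windows. The 23 Nfib peaks lie between 37.9 and 64.0 tags with folds up to 3.64, and the other 27 lie at 8.62 tags or below within the main cloud.

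Nfib lay inside a longer stretch with the same state. An unbroken run of 96 raised M6 peaks reached from chr4:82020602 to 83165450, over 1145 kb with 4 protein-coding genes, Nfib, Zdhhc21, Cer1 and Frem1. W2 had 0 peaks in it. Below the run, after 2 M6 peaks that were not raised, another 23 raised M6 peaks (17.6 to 39.8 tags) lay at chr4:81815783-82003514, with 0 W2 peaks. Above the run, none of the 11 M6 peaks within 1 Mb was raised. Nfib was not the densest portion of the run, since the rest held 8.81 M6 peaks per 100 kb against 7.27 in the Nfib window. Of the 10 strongest peaks of the run by −log10 q, 5 were Nfib peaks, which made up 24.0% of the run. Of the neighbors, Zdhhc21, which encodes a palmitoyltransferase, had 17 M6 peaks, or 10.5 per 100 kb, the highest density of any protein-coding window. Frem1, which encodes an extracellular matrix protein, had 14, and Cer1, which encodes a secreted antagonist of Nodal and BMP signals, had 6. All of these were raised. Outside the run the neighbors Psip1 and Snapc3 had 5 M6 peaks each and none raised, with 3 and 2 W2 peaks. Ttc39b had 1 peak in each library and Mpdz 1 in M6. At the edge of the Nfib window, the outermost peaks inside lay 39.9 kb below and 35.4 kb above the gene, and the next ones outside 72.2 kb below and 57.3 kb above, with backgrounds of 29.3 and 36.8 tags. The nearest W2 peaks were 1339 kb below and 817 kb above Nfib, at backgrounds of 3.54 and 4.34 tags, 1.03 and 1.26 times the W2 median. How the background of W2 behaved at Nfib itself is unknown, since a peak list gives a background only at peaks.

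**Figure D4:**
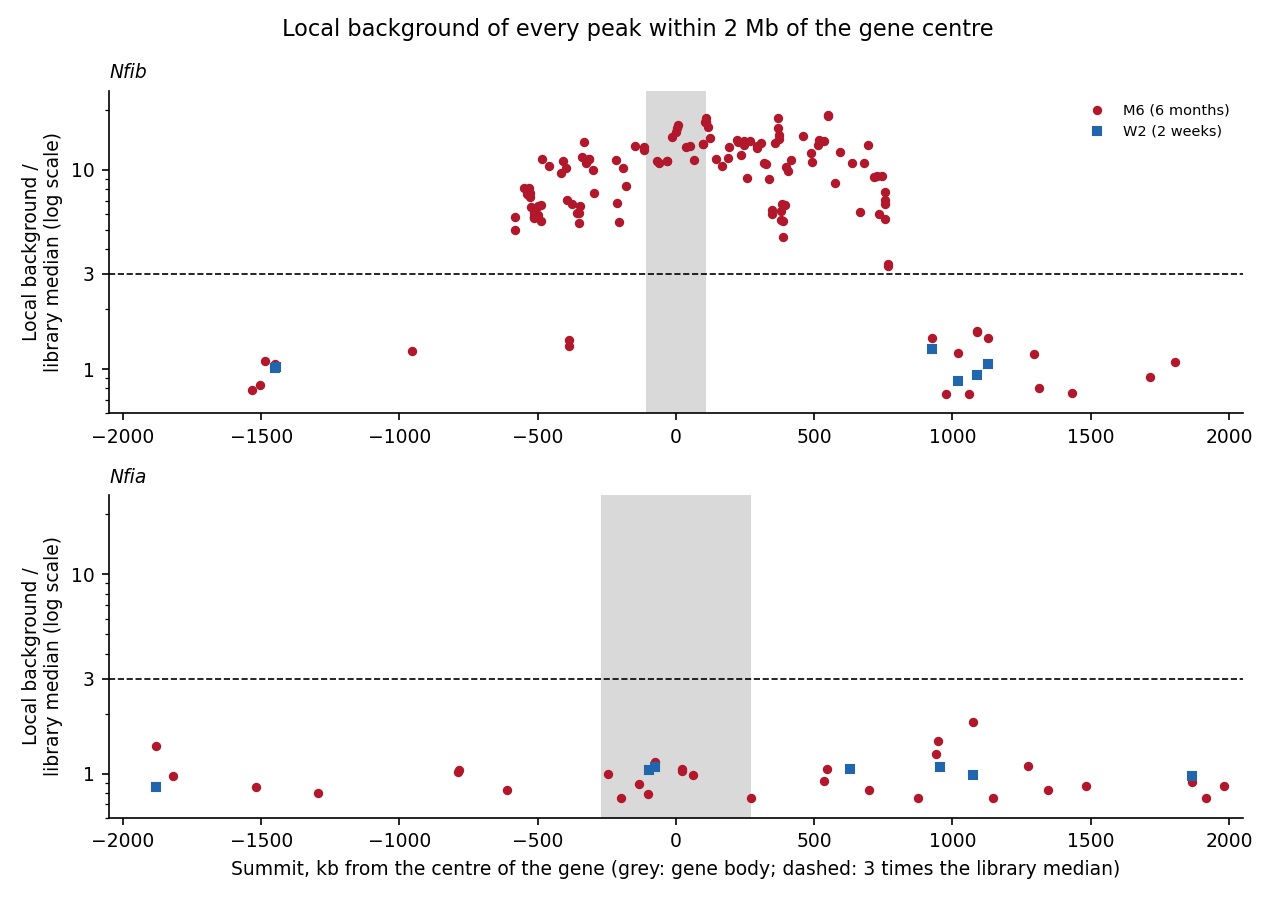
Local background of every peak within 2 Mb of the centre of Nfib (top) and Nfia (bottom), as a multiple of the median of its own library (log scale), for M6 (red) and W2 (blue). The M6 peaks of the Nfib window lie above the dashed line at 3 times the median, as do those of the run around it, while all peaks around Nfia, on the same chromosome, lie below it.

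The density of Nfib also occurs without raised background. By the sum of the absolute differences in peaks per 100 kb over the 2 libraries, the 3 genes outside its window most like Nfib were Mrpl58 (7.34 in M6 and 0 in W2), Otop3 (7.13 and 0) and Hid1 (7.50 and 0), near one another on chromosome 11, so that their windows share peaks. They had 0 raised peaks, median backgrounds of 3.73, 4.12 and 3.88 tags, and median folds of 4.37, 4.40 and 4.37. Like Nfib, each thus had a dense set of M6 peaks and none in W2, but at an ordinary background and a fold about that of the library. The nearest genes to Nfia were Nav1, Rfx3 and Arhgap32 (5 M6 peaks and 1 W2 peak each). Those to Nfic were Klf13, Mettl26 and Lsm10, and those to Nfix were Rab40c, Pgs1 and Elavl3. None of these 9 genes had a raised peak. Raised peaks made up 219 of the 22570 in M6, which is a share of peaks and not of gene windows.

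Nfia, which shares chromosome 4 with Nfib, had sparse peaks of ordinary strength. Its strongest M6 peak, chr4:97910861-97911190 in the gene body, had 27 tags, a fold of 6.25 and a −log10 q of 12.1. The second, chr4:97772140-97772460, had 24 tags in M6 and 24 in W2, with summits 1 bp apart, and lay in the body of both Nfia and the long non-coding RNA gene Gm38709. It was the only site inside any NFI gene body with a peak in both libraries. The third, chr4:97868920-97869165 (22 tags, fold 4.87), covers the start of Gm19417 shown above. The other 2 of the strongest 5 had 18 and 19 tags and folds of 4.61 and 4.42. The other W2 peak, chr4:97751175-97751374 (17 tags, fold 3.93, −log10 q 3.80), was the only W2 peak of the family without an M6 counterpart.

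The 2 strongest peaks of Nfic lay at starts of its neighbors. The strongest, chr10:81350356-81351006 at Hmg20b, which encodes a high mobility group protein of a histone demethylase complex, had 46 tags and a −log10 q of 18.8 in M6, and 25 tags and 6.94 in W2. Next came chr10:81378453-81379105 at the start region of Fzr1, which encodes an activator of the anaphase-promoting complex, with 46 tags in M6 and 28 in W2. The site at Dohh had 29 and 22 tags. Of the 5 strongest sites by −log10 q, 3 had an M6 peak only. One was chr10:81432931-81433253, 1.01 kb beyond the upper end of Nfic (38 tags, fold 4.63, −log10 q 11.9), and another chr10:81464464-81464709, inside the neighbor Celf5 (31 tags, fold 4.89). The last was the single peak in the body of Nfic, chr10:81411688-81412073, with 38 tags and a fold of 4.05.

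The strongest peaks of Nfix lay outside its body. The strongest, chr8:84846829-84847322 over the starts of Calr and the long non-coding RNA gene 1700122E12Rik, 45.6 kb from Nfix, had 45 tags and a fold of 7.44 in M6, and 28 tags and a fold of 5.60 in W2. The site chr8:84664018-84664249, 40.5 kb below the gene, had 35 tags in M6 and 25 in W2, and that at chr8:84656924-84657123 had 22 and 19. A peak at chr8:84664930-84665155, in M6 only, had 31 tags. The 4 peaks in the body of Nfix were in M6 only, with 18 to 24 tags and folds of 3.31 to 4.21. The strongest of them, chr8:84709308-84709552, had 21 tags.

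In all, 7 sites of the family had a peak in both libraries. Of the M6 peaks, 7 of 50 had a W2 counterpart (14.0%, exact binomial 95% interval 5.82 to 26.7%), against 20.2% of the whole M6 list. All 7 were among the 27 at the other 3 genes (25.9%, 11.1 to 46.3%). The 0 of 23 at Nfib restates that its window had no W2 peak, and these 23 lower the share of the family. Of the W2 peaks, 7 of 8 had an M6 counterpart (87.5%, 47.3 to 99.7%), against 80.5% of the W2 list. Of the 7 sites, 6 lay outside the NFI gene and 4 of these touched the start region of another gene. M6 pileups were higher at 6 of the 7 sites and equal at 1, against higher at 85.8% of 4606 such pairs in the genome without raised M6 background. The M6 to W2 ratios ran from 1.00 to 1.84 with a median of 1.40, against a median of 1.46 over those pairs. The exact binomial 95% interval of the ratio was above 1 at Hmg20b (1.11 to 3.13) and Fzr1 (1.01 to 2.73) and included 1 at the other 5 sites, and these 2 intervals also include the median of the library. The deposited fold was the larger in M6 at 2 of the 7, Hmg20b and Calr, and the larger in W2 at the other 5. It ranks peaks within a list and does not measure change between the lists.

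**Figure D5:**
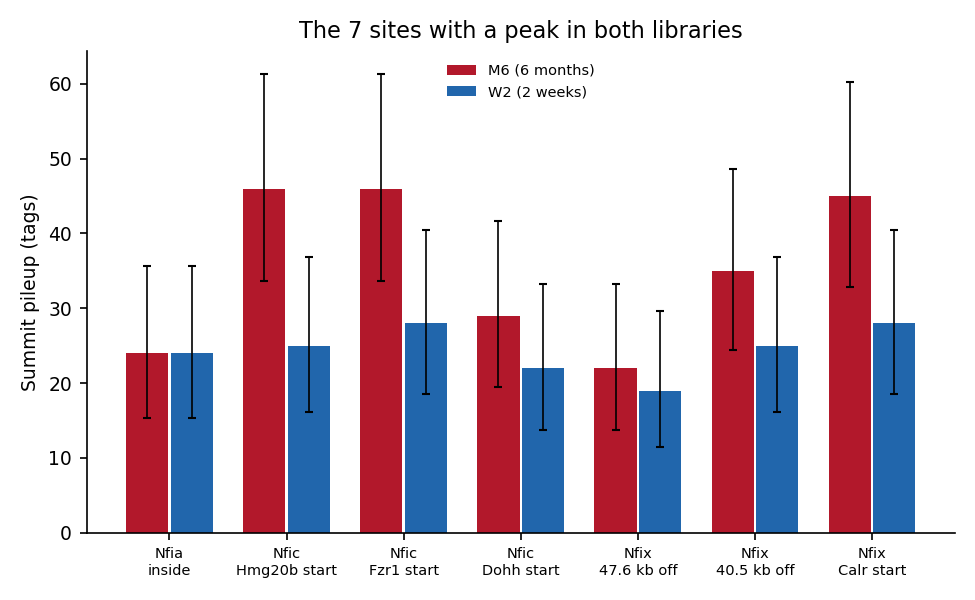
Summit pileup in tags at the 7 sites of the NFI windows with a peak in both libraries, M6 (red) left of W2 (blue), with exact Poisson 95% intervals for counting error. M6 lies higher at 6 sites and equals W2 at the site inside Nfia (24 tags each), and the intervals of the 2 libraries overlap at every site.

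Partners, regulators and reported targets of NFI proteins, with Mycl added, were counted in the same windows. Of the 20 genes on this list, 14 had more peaks in M6, 1 had fewer and 5 had the same number, beside 64.2% and 2.07% of all protein-coding windows with more and fewer. The median was 2 peaks in M6 and 1 in W2, against 2 and 0 over all protein-coding genes. Among the partners and regulators, Foxa1, a pioneer factor of the prostate, had 2 peaks in each library. In the gene or within 10 kb of it lay 0 of these in M6 and 1 in W2. Sox9, an activator of Nfia in glial development, had 3 in M6 and 0 in W2. Mycl, a MYC family gene elsewhere on chromosome 4 (chr4:122995588-123002490), had 11 M6 peaks, all raised (median background 63.5 tags), and 4 W2 peaks (3.96 tags). It is named above for its joint copy gain with Nfib and not as an NFI partner or regulator. The list that holds it was made with earlier results of these data known. Pax6, a regulator of neural development, had 0 in both. Among 14 targets reported in other tissues, Hes1, a Notch effector, had 5 M6 peaks and 1 W2 peak, and Bbx, a target of Nfix in neural progenitors, also had 5 and 1. Zcchc24 had 4 and 1, Mmd2 3 and 1, Ezh2, the Polycomb methyltransferase, 2 and 1, and the radial glia gene Fabp7 3 and 0. Gfap, an astrocyte gene, had 1 and 0. Pparg, the adipocyte regulator, was the gene with fewer in M6 (0, against 1 in W2). Apart from Mycl, 0 of the 20 had a raised peak. Of all 22570 M6 peaks 219 were raised, which is a share of peaks, and the matching share of gene windows was not counted.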

How the data were processed

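The submitters' processing notes name build mm10 and, without order or role, deepTools, Bowtie2, SAMtools 1.4 and Trim Galore 0.5.0. For the peak caller, its threshold, duplicate handling and any shift of read ends, nothing was given in the sources used. Each deposited list, 1 per library, gave intervals, summits, a score (10 times the −log10 q, not used), a fold over local background (a linear ratio), and the authors' −log10 p and −log10 q. Deposited folds and −log10 values describe and rank peaks within a list. Where both libraries' values are given for a site, they do not measure change between the lists. The analysis kept chromosomes 1 to 19, X and Y (24 M6 and 30 W2 peaks lay elsewhere). Pileup and background were solved for from the fold, as (pileup + 1)/(background + 1), and a Poisson −log10 p. In both lists 100% of peaks gave a whole-number pileup within 0.001 of their −log10 p. The lowest pileups were 10 tags in M6 and 12 in W2, so weaker sites are outside both lists.

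Gene bodies came from a RefSeq table of GRCm38.p6 with 21887 protein-coding genes, without strand or exons, so introns and exons are not separated here. Start regions came from RefSeq sequences of the same assembly. Genes named are the 4 family members, their 5 strongest M6 peaks each and every W2 peak, the 3 genes nearest in peak density, neighbors within 1 Mb, and listed partners, targets and markers, some of which are counted but not reported here by name. Single features named outside this rule, such as the upper end of Nfib, were chosen after their values were seen. The members, lists and settings were chosen with earlier results of these data known. Scaling to the library median and the fold minimums were added after the data were seen. Analysis used Python 3.11.15, pandas 2.3.3 and SciPy 1.17.1, and the recovery and counting steps were tested on simulated data.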

Additional observations from a re-analysis of the deposited data

How the results depend on the processing

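No paired analysis was possible because each time point had 1 library, and no library could be left out. The M6 count at Nfib (23) and at the other 3 genes (27) was 16 and 13 in gene bodies alone, 20 and 16 with 10 kb and 29 and 32 with 100 kb on either side. It was 21 and 17 at a −log10 q of at least 5, 14 and 5 with 5735 peaks per library ranked by −log10 q, and unchanged when the summit had to lie inside. Ranked by fold, the counts were 0 and 4. At a fold of at least 3 they were 5 and 26, at 4 or more 0 and 16, and with tags scaled to the library median background 2 and 27. Nfib minus the other 3 windows was 4.49 M6 peaks per 100 kb, and between 3.91 and 6.27 under the other settings. It turned to −0.411 ranked by fold, −1.09 at a fold of 3, −1.64 at a fold of 4 and −2.14 with scaled tags. The fold settings remove peaks of low fold, with 98.4% of all M6 peaks at 3 or more and 76.1% at 4 or more. The scaling lowers the tags of raised peaks only. Nfib had 0 W2 peaks under every setting run, which none could change because the nearest W2 peak lay 817 kb away. The 7 shared sites stayed 7 with 50% overlap of both peaks or with summits within 200 bp. With 2 or 5 times the library median as raised, Nfib kept 23 raised peaks, and the other 3 genes had 6 at 2 times and 0 at 5 times.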

Other observations

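Scaling tags to the library median background left 6 of the 96 peaks of the run around Nfib and 24 of all 219 raised M6 peaks. Of these 219 raised peaks, 189 lay on chromosome 4. W2 had 11 raised peaks, 0 of them on chromosome 4.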
